A study of Mus musculus with 2 samples.

Results

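Cholesterol and fatty acids are both built from acetyl-CoA, and the 36 genes examined here encode most of the enzymes of the 2 routes together with proteins that set their transcription. They were taken by symbol from the 31054 features of both count matrices, where all 36 were present. The sterol branch has 18 of them, the fatty acid branch 12, and 6 are regulators or carry sterol between membranes. The genes were listed by their function. Islet cells came from male C57Bl6 mice aged 12 weeks, either of genotype Tg7, in which β-cells overexpress miR-7a2, or Wild-type littermates. Droplet-based single-cell sequencing gave 1 library per genotype, and neither the labels nor the methods say how many mice went into it or which promoter drives the transgene. According to the study's text both genotypes, controls included, also carried rat Ins2-Cre with a Rosa26-floxed-Stop-tdTomato reporter that labels β-cells, which the labels do not list. With 1 library per genotype no test between genotypes was possible. No difference below has a replicate check, and every bracketed range is a 95% interval for counting error alone.

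Both branches start in the cytosol. Acly makes acetyl-CoA from citrate and Acss2 makes it from acetate, after which the carboxylases Acaca and Acacb commit it to fatty acids. Fasn assembles the chain, and Elovl6 and the Scd desaturases lengthen and desaturate it. The Fads genes encode desaturases of polyunsaturated fatty acids. In the sterol branch Acat2 and Hmgcs1 open the mevalonate pathway, Mvk, Pmvk, Mvd, Idi1 and Fdps carry it to farnesyl pyrophosphate, Fdft1 and Sqle make squalene and its epoxide, and Lss forms lanosterol, from which Cyp51, Tm7sf2, Msmo1, Nsdhl, Hsd17b7, Ebp, Sc5d and Dhcr7 lead to cholesterol. Transcription of both branches is driven by SREBP proteins, with the Srebf2 product acting mainly on sterol genes and Srebf1 products mainly on fatty acid genes. Scap escorts them out of the endoplasmic reticulum when sterol is scarce, the Insig proteins hold them there when it is abundant, and SREBP acts together with NF-Y at CCAAT boxes and Sp1 at GC boxes. In β-cells membrane cholesterol is known to matter for insulin granules and for the channels of secretion.

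Promoters are shown first because these genes are known for shared promoter elements. RefSeq promoters of build GRCm38.p6, 300 bases long with 250 before and 50 after the start site, were held for 29 of the 36 members, in 39 entries. Printed 5′ to 3′ in the direction of the gene are an early sterol enzyme (Hmgcs1), the sterol gene with most UMIs in insulin cells (Msmo1), a feedback regulator (Insig1) and the most abundant fatty acid gene (Acly). Capitals mark each match, on either strand, to TCACNCCAC (a form of the sterol regulatory element), to the NF-Y box CCAAT, to the GC box of Sp1 spelled GGGCGG or to the E-box spelled CACGTG, and no matches overlapped in these 4 sequences. The Hmgcs1 promoter lies at chr13:119690101-119690400 on the plus strand, that of Msmo1 at chr8:64733529-64733828 on the minus strand, that of Insig1 at chr5:28071162-28071461 on the plus strand and that of Acly at chr11:100527951-100528250 on the minus strand.
Hmgcs1: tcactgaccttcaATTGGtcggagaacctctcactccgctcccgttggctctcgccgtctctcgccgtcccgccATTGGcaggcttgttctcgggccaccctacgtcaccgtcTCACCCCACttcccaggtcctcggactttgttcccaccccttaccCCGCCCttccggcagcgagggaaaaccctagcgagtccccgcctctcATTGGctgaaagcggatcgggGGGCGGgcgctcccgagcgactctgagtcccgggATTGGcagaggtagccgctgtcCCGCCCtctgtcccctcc
Msmo1: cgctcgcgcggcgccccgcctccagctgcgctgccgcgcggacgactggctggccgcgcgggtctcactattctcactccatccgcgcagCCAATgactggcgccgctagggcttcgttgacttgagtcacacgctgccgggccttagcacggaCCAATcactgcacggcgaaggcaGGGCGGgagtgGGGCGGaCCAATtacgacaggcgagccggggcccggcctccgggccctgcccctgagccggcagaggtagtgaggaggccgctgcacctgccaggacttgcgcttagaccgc
Insig1: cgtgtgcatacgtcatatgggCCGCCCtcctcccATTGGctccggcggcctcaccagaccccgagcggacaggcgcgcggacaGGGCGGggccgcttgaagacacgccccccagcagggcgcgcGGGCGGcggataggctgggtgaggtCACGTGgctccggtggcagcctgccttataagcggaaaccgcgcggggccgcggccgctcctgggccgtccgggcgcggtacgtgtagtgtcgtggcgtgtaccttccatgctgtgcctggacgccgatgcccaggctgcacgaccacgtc
Acly: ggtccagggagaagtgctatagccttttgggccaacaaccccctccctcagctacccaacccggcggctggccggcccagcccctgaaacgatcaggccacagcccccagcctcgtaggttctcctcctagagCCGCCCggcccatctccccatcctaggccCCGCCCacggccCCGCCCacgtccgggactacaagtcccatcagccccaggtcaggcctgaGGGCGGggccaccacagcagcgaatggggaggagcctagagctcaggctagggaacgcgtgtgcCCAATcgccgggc

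Among members with a promoter entry, TCACNCCAC stood in Hmgcs1 alone, its first base at position -137 from the start site, which is 1 of 15 sterol genes, 0 of 9 fatty acid genes and 0 of 5 regulators. Of all 27025 genes with a promoter, 1.44% held it. CCAAT stood in 14 of 15 sterol promoters, 6 of 9 fatty acid promoters and 4 of 5 regulator promoters, where 41.1% of all genes held it. GGGCGG stood in 14 of 15, 5 of 9 and 5 of 5 (all genes 38.2%), and CACGTG in 3 of 15, 0 of 9 and 2 of 5 (all genes 8.09%). In the printed sequences Hmgcs1 held 4 CCAAT boxes and Msmo1 3. Acly held 1, at position 38 after the start site, together with 4 GC boxes. A gene with several start sites was counted once. A match is a run of letters in this window and does not show that a factor is bound.

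The microRNA overexpressed in Tg7 is shown with its seed matches in members. Mature miR-7a-5p, encoded on the plus strand of GRCm38.p6 at chr7:78888295-78888317 in the RefSeq annotation, is printed with its seed, bases 2 to 8, in capitals. Below it stand the 5 seed matches found in 3′ UTRs of members, with the 7 pairing bases in capitals.
miR-7a-5p: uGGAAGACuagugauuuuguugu
Srebf1: ttggctgtgGTCTTCCagagggtga
Fads1: aagagtgagGTCTTCCctcccactg
Scd2: gaggggacaGTCTTCCtgggctagt
Hsd17b7: aagtaacttGTCTTCCttgtattga
Lss: tgacccataGTCTTCCctccgacaa

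The search, made after values were seen, covered the longest annotated 3′ UTR of 35 members in a GENCODE annotation older than the build of the counts. It found a match in 5 of them (14.3%), against 11.2% of 19915 genes. The match lay near the start of the Srebf1 3′ UTR, at its bases 42 to 48, and further in for Fads1 (737 to 743), Lss (1469 to 1475), Scd2 (2159 to 2165) and Hsd17b7 (3134 to 3140). Mature miR-7 was not among the measured features. The Tg7 to Wild-type ratios of these 5 genes were 0.403, 0.549, 0.810, 0.569 and 0.617 in insulin cells, in that order. Fdps had 0.427 and held no match, but its searched 3′ UTR was only 51 bases long. Those with a match ran from 833 bases (Srebf1) to 3664 (Scd2). Whether miR-7 acts on any of these genes was not tested.

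The matrices held 29931777 UMIs (unique molecular identifiers, which count captured transcripts) over 1123 Tg7 barcodes and 30829078 over 855 Wild-type barcodes, with 0 barcodes shared, and filters left 988 and 743 cells. A cell was placed by its hormone share, with insulin at 10% of UMIs or more, or Gcg, Sst or Ppy at 5% or more, and no second hormone past its threshold. This gave 576 Tg7 and 489 Wild-type insulin cells, 177 and 146 Gcg cells, 18 and 26 Sst cells, 22 and 11 Ppy cells and, by vascular markers, 9 and 23 endothelial cells. The summed β-cell markers stood at 2361 and 1516 in insulin cells and the α-cell markers at 615 and 569 in Gcg cells. The β-cell sum includes the hormone gene Iapp, which the divisor leaves out, and does not show which markers rose or fell. The study reports lower expression of several β-cell markers in Tg7. Levels are UMIs per 10000 UMIs of genes other than 7 islet hormone genes. This scaling matters in insulin cells, where those other genes made up 56.5% of UMIs in Tg7 and 32.7% in Wild-type, so that dividing by all UMIs multiplied every ratio by 1.73, whereas in Gcg cells the factor was 0.921. The median log2 ratio of all measured features in insulin cells was -0.02, or 0.77 scaled to all UMIs, and differences are read against it.

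In insulin cells the sterol branch stood lower in Tg7 relative to the other non-hormone genes. Its 18 genes gave 8874 Tg7 and 10279 Wild-type UMIs, a level of 7.82 (7.66 to 7.98) against 12.2 (12.0 to 12.4) and a ratio of 0.642 (0.624 to 0.660). All 18 were measured, meaning at least 20 UMIs over both libraries, and 15 had a lower level in Tg7. Of these 9 were at least 1.5-fold lower with an interval that left out 1, as were 12.6% of the 12744 features measured, and 1 was at least 1.5-fold higher, as were 14.6%. The median log2 ratio of the branch was -0.59. Scaled to all UMIs it was 0.20, still below that of all features (0.77), but the ratio of the summed branch turned to 1.11 (1.08 to 1.14). The genes past 1.5-fold became 4 higher and 0 lower. The share of all features past 1.5-fold was not counted under this scaling, so these 4 are not read as a rise of the branch.

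Among the entry steps, Hmgcs1, HMG-CoA synthase, gave 1211 Tg7 and 1912 Wild-type UMIs, a level of 1.07 against 2.27 and a ratio of 0.471 (0.438 to 0.506). Acat2, which joins the first acetyl-CoA units, was counted at 58 against 76 UMIs with a ratio of 0.567 (0.396 to 0.809). Of the kinases and the decarboxylase of mevalonate, Mvk had a ratio of 0.673 (0.497 to 0.911) and Mvd of 0.571 (0.405 to 0.803), whereas Pmvk, the enzyme between them, had 662 against 497 UMIs and 0.990 (0.880 to 1.12). Neighbouring steps of this short route thus differed in their ratios. Idi1, the isomerase, had a level of 0.274 against 0.480 and a ratio of 0.571 (0.491 to 0.663). Fdps, which makes farnesyl pyrophosphate, had the lowest ratio of the branch, from 573 against 997 UMIs, at 0.427 (0.385 to 0.474).

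Past farnesyl pyrophosphate the ratios were mixed. Fdft1, squalene synthase, was counted at 670 against 466 UMIs with levels of 0.590 against 0.552 and a ratio of 1.07 (0.948 to 1.21). Sqle, squalene epoxidase, had 1412 against 1410 UMIs and a ratio of 0.745 (0.691 to 0.802), and Lss, the cyclase, 0.810 (0.662 to 0.991). Among the enzymes that trim lanosterol, Msmo1, the C4 methyl oxidase, gave the most UMIs of the branch. It stood at 1678 against 2331 UMIs, a level of 1.48 against 2.76 and a ratio of 0.535 (0.502 to 0.570). Cyp51 had a ratio of 0.733 (0.653 to 0.824), Hsd17b7 of 0.617 (0.456 to 0.834), Ebp of 0.607 (0.524 to 0.702) and Sc5d of 0.660 (0.570 to 0.763). Tm7sf2, with 51 against 44 UMIs, had 0.862 (0.564 to 1.32), an interval that held 1.

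Dhcr7, the reductase of the last step, stood on the other side from most of the branch. It gave 384 Tg7 and 184 Wild-type UMIs, a level of 0.338 against 0.218 and a ratio of 1.55 (1.30 to 1.86), the 1 sterol gene at least 1.5-fold higher, and 2.68 scaled to all UMIs. Nsdhl, a partner of Msmo1 in removing the C4 methyl groups, was counted at 152 against 88 UMIs with a ratio of 1.28 (0.981 to 1.69). Hmgcs1, Mvd, Idi1, Fdps, Msmo1 and Acat2 stayed below 1 scaled to all UMIs, the lowest being Fdps at 0.738 and Hmgcs1 at 0.813. Mvk, Sqle, Lss, Cyp51, Hsd17b7, Ebp and Sc5d passed to above 1, and so did Pmvk (1.71) and Tm7sf2 (1.49), whose intervals had held 1.

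**Figure D1:**
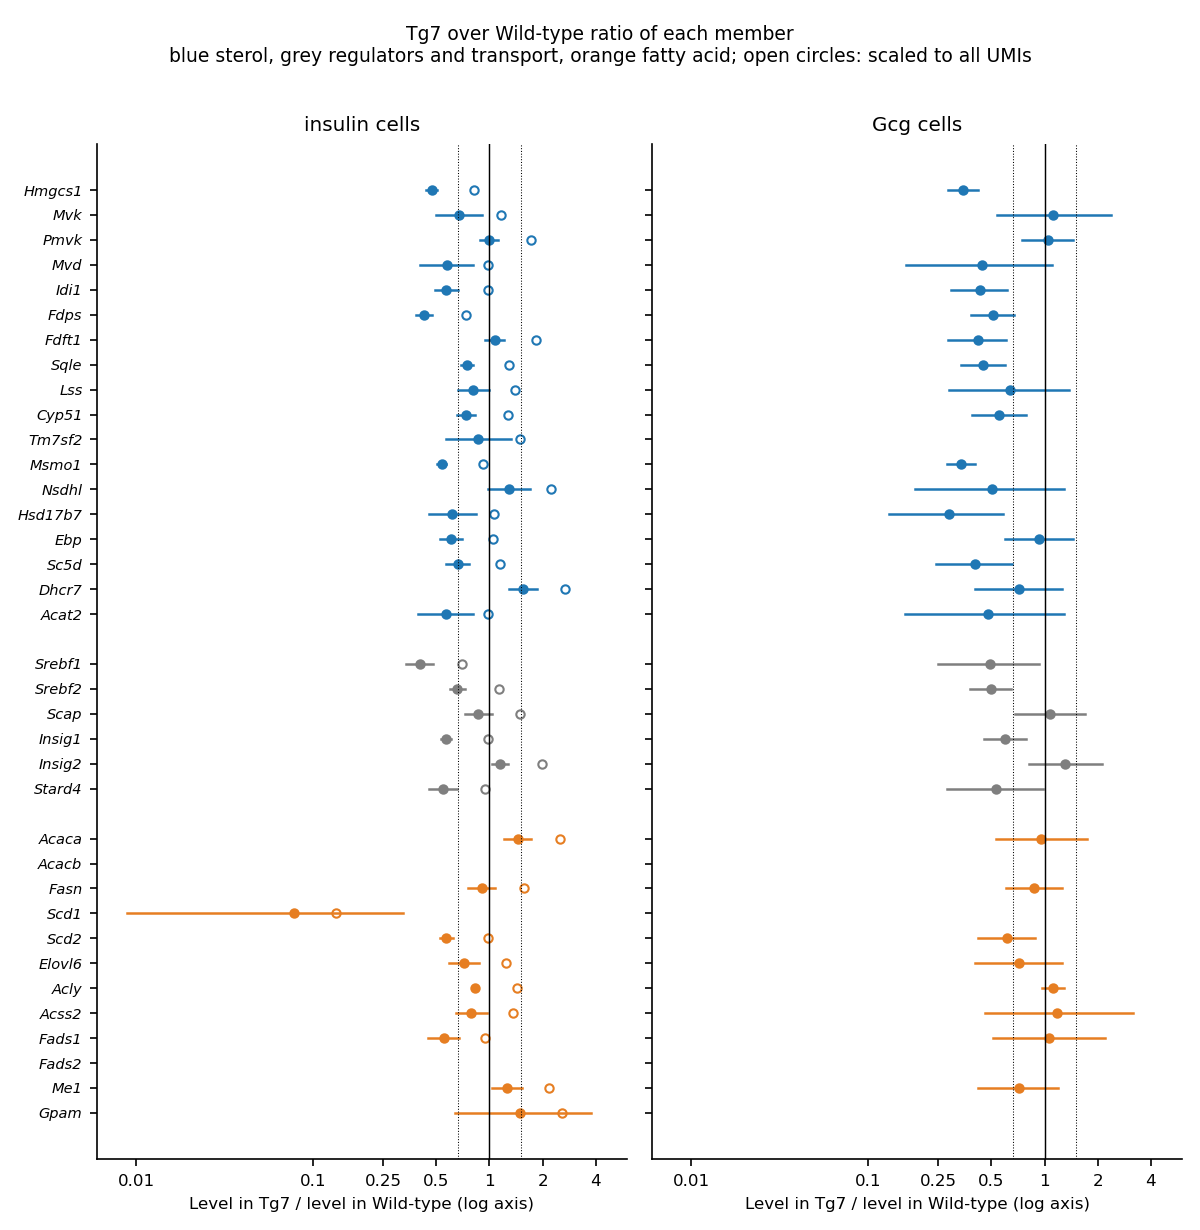
Ratio of the level in Tg7 to the level in Wild-type for each member with at least 20 UMIs, in insulin cells (left) and Gcg cells (right), on a log axis, as points with 95% counting intervals. Open circles in the left panel are the same ratios scaled to all UMIs. Most sterol genes sit below 1 in both panels, Dhcr7 sits at 1.55 in insulin cells, and Acly sits at 0.833 in insulin and 1.12 in Gcg cells.

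Of the 6 regulators and transport genes, 5 stood lower in Tg7 insulin cells and Insig2 did not. Srebf2 was counted at 810 against 916 UMIs, a level of 0.714 against 1.09 and a ratio of 0.657 (0.597 to 0.723). Srebf1 had 207 against 382 UMIs and a ratio of 0.403 (0.339 to 0.478), the lowest of the 6. Scap, the escort protein, had 0.866 (0.730 to 1.03), an interval that held 1. Insig1, itself a textbook target of SREBP, was counted at 1355 against 1775 UMIs with levels of 1.19 against 2.10 and a ratio of 0.568 (0.528 to 0.609). Insig2, which also retains SREBP, stood on the other side with 946 against 613 UMIs and a ratio of 1.15 (1.04 to 1.27). Stard4, a carrier of cholesterol between membranes, had 205 against 278 UMIs and a ratio of 0.548 (0.455 to 0.659). Srebf1, Srebf2, Insig1 and Stard4, 4 of the 6, were at least 1.5-fold lower, as were 12.6% of all features. The median log2 ratio of the 6 was -0.71 (0.08 scaled to all UMIs, where Srebf2 passed to 1.14 and Scap, whose interval had held 1, to above 1).

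The fatty acid branch had a ratio nearer to 1. Its 12 genes gave 10513 Tg7 and 9634 Wild-type UMIs, a level of 9.26 (9.09 to 9.44) against 11.4 (11.2 to 11.7) and a ratio of 0.811 (0.789 to 0.834), which turned to 1.40 (1.36 to 1.44) scaled to all UMIs. Acly, ATP citrate lyase, made up 76.2% of these UMIs in Tg7 and 74.2% in Wild-type, so the sum is largely its own. It was counted at 8007 against 7147 UMIs, a level of 7.05 against 8.47 and a ratio of 0.833 (0.807 to 0.860). Without Acly the branch had a ratio of 0.749. Of 10 fatty acid genes measured 7 stood lower in Tg7, as did 6607 of 12744 features. At least 1.5-fold lower were 3 genes (Scd1, Scd2 and Fads1), as were 12.6% of all features. At least 1.5-fold higher were 0, as were 14.6% of all features. The median log2 ratio of the branch was -0.30 (0.49 scaled to all UMIs).

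The desaturases had the lowest ratios of this branch. Scd2, the stearoyl-CoA desaturase with most UMIs here, was counted at 908 against 1186 UMIs with a ratio of 0.569 (0.521 to 0.621), and Fads1 at 181 against 245 UMIs with a ratio of 0.549 (0.451 to 0.668). Both held a miR-7 seed match, found in 14.3% of members and 11.2% of all genes, and whether miR-7 acts on them was not tested. Scd1, the isoform best known from liver, held no match. It was nearly unread, with 2 against 19 UMIs and a ratio of 0.0783 (0.00884 to 0.324). Elovl6, the elongase, had 0.717 (0.592 to 0.868) and Acss2 0.790 (0.645 to 0.967). Fasn, fatty acid synthase, stood at 292 against 240 UMIs and a ratio of 0.905 (0.760 to 1.08).

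The committed step stood on the other side. Acaca, acetyl-CoA carboxylase, was counted at 394 Tg7 and 203 Wild-type UMIs, a level of 0.347 against 0.241 and a ratio of 1.44 (1.22 to 1.72). Me1, malic enzyme, a source of NADPH for the synthesis, had 273 against 162 UMIs and a ratio of 1.25 (1.03 to 1.53). Gpam, which starts glycerolipid assembly, had 18 against 9 UMIs and 1.49 (0.634 to 3.76). Acacb (16 against 3 UMIs) and Fads2 (3 against 5 UMIs) were under the count minimum and entered no count of members. Scaled to all UMIs Acly, Acss2, Elovl6 and Fasn passed to above 1 (1.44, 1.36, 1.24 and 1.56), while Scd2 (0.983), Fads1 (0.949) and Scd1 (0.135) stayed below it.

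In Gcg cells, which make glucagon, the sterol branch stood lower in Tg7 under both scalings. It gave 864 Tg7 and 1692 Wild-type UMIs, a level of 5.16 (4.82 to 5.52) against 11.4 (10.9 to 12.0) and a ratio of 0.453 (0.417 to 0.492), or 0.417 scaled to all UMIs. Of 17 sterol genes measured 15 were lower and 9 of them at least 1.5-fold lower, as were 7.22% of the 9364 features measured, and 0 at least 1.5-fold higher, as were 4.07%. The branch median was -1.07 on the log2 scale, against -0.04 for all features. Of the 31 members measured, those whose interval left out 1 kept their side when scaled to all UMIs, while Pmvk, Scap and Fads1, whose intervals held 1, crossed it.

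Hmgcs1 had 151 Tg7 and 387 Wild-type UMIs in these cells, a level of 0.902 against 2.61 and a ratio of 0.346 (0.285 to 0.419), and Msmo1 164 against 432 UMIs and 0.337 (0.279 to 0.404). Hsd17b7 had the lowest ratio of the branch, from 11 against 34 UMIs, at 0.287 (0.131 to 0.580). Idi1 (0.429), Fdps (0.511), Fdft1 (0.419), Sqle (0.449), Cyp51 (0.554) and Sc5d (0.404) were the other sterol genes at least 1.5-fold lower. Fdft1, at 1.07 in insulin cells, thus had 43 against 91 UMIs and an interval of 0.284 to 0.608 here. Pmvk was again near 1, with 81 against 69 UMIs and 1.04 (0.745 to 1.46), and Ebp had 0.929 (0.594 to 1.45). Dhcr7, higher in Tg7 insulin cells, had 25 against 31 UMIs and a ratio of 0.715 (0.405 to 1.25). Mvk (1.12), Mvd (0.443), Lss (0.640), Nsdhl (0.507) and Acat2 (0.477) were read at 34 UMIs or fewer over both libraries and had intervals that held 1.

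Of the regulators, Srebf2 was counted at 87 against 156 UMIs with a ratio of 0.494 (0.376 to 0.647), Srebf1 at 16 against 29 UMIs with 0.489 (0.248 to 0.931), Insig1 at 93 against 138 UMIs with 0.597 (0.454 to 0.783) and Stard4 at 18 against 30 UMIs with 0.532 (0.279 to 0.986). These 4 of the 6 were at least 1.5-fold lower, as were 7.22% of all features in Gcg cells. The same 4 were at least 1.5-fold lower in insulin cells. Insig2 stood above 1 in both, at 1.30 (0.813 to 2.11) here, an interval that held 1. Scap had 1.07 (0.683 to 1.70). The median log2 ratio of the 6 was -0.83.

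The fatty acid branch of Gcg cells was close between the libraries. It gave 680 Tg7 and 615 Wild-type UMIs, a level of 4.06 (3.76 to 4.38) against 4.14 (3.82 to 4.49) and a ratio of 0.980 (0.878 to 1.10). Acly stood at 449 against 357 UMIs and a ratio of 1.12 (0.968 to 1.29). Scd2, at 51 against 74 UMIs and 0.611 (0.419 to 0.885), was the 1 of 8 measured genes past 1.5-fold. Of all features 7.22% were at least 1.5-fold lower and 4.07% at least 1.5-fold higher. Acaca (0.960), Fasn (0.873), Elovl6 (0.715), Me1 (0.714), Fads1 (1.05) and Acss2 (1.18) had intervals that held 1. The branch median was -0.13 on the log2 scale.

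The sum of the β-cell markers was also higher in Tg7 Gcg cells. These 10 genes include the hormone gene Iapp, which the divisor leaves out. They summed to 223 UMIs per 10000 in Tg7 and 33.7 in Wild-type Gcg cells. Insulin went the other way, with a median share of 0.0623% of UMIs in Tg7 and 0.145% in Wild-type Gcg cells. In an alternative chosen after seeing the marker sums, cells with every other hormone under 1% of UMIs were kept. This left 133 Tg7 and 125 Wild-type Gcg cells with β-cell markers at 42.2 and 15.0. The sterol ratio was then 0.381 (0.343 to 0.423) and the fatty acid ratio 0.698 (0.604 to 0.805), so under this limit the fatty acid branch was lower in Tg7 too. Acly had 207 against 283 UMIs and a ratio of 0.786 (0.654 to 0.944), and 7 of 7 fatty acid genes measured were lower. Only 2 of the 7 were at least 1.5-fold lower, and the intervals of Acaca, Fasn, Elovl6 and Fads1 held 1. The share of all features lower under this limit was not counted. Hmgcs1 (0.288), Msmo1 (0.268), Srebf2 (0.361) and Insig1 (0.289) had lower ratios than in all Gcg cells, and Insig2 stood at 0.876 (0.475 to 1.60). In insulin cells the same limit left 468 and 475 cells and ratios of 0.658 (0.638 to 0.679) for the sterol and 0.810 (0.785 to 0.834) for the fatty acid branch.

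**Figure D2:**
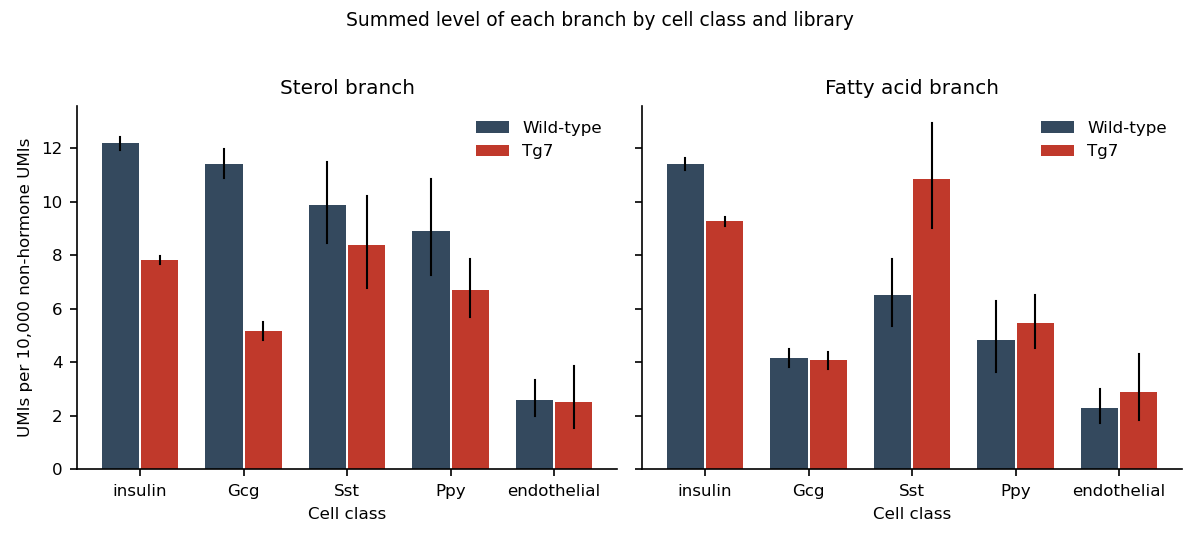
Summed level of the sterol branch and the fatty acid branch by cell class and library, with 95% counting intervals, in UMIs per 10000 non-hormone UMIs. The sterol level of Tg7 is lower than that of Wild-type in insulin (7.82 against 12.2) and Gcg cells (5.16 against 11.4), and the fatty acid levels of Gcg cells lie together at 4.06 and 4.14.

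Across Wild-type classes the sterol level was 12.2 (12.0 to 12.4) in insulin, 11.4 (10.9 to 12.0) in Gcg, 9.88 (8.44 to 11.5) in Sst, 8.91 (7.25 to 10.8) in Ppy and 2.59 (1.97 to 3.34) in endothelial cells, and each endocrine class overlapped its neighbour in this order while endothelial cells lay below. In Tg7 the order was Sst (8.37), insulin (7.82), Ppy (6.70), Gcg (5.16) and endothelial (2.50), with overlapping intervals for Sst, insulin and Ppy. The fatty acid level in Wild-type was 11.4 (11.2 to 11.7) in insulin, 6.51 (5.35 to 7.84) in Sst, 4.81 (3.62 to 6.28) in Ppy, 4.14 (3.82 to 4.49) in Gcg and 2.28 (1.71 to 2.99) in endothelial cells, with overlap between Sst and Ppy and between Ppy and Gcg. In Tg7 it was 10.8 in Sst, 9.26 in insulin, 5.45 in Ppy, 4.06 in Gcg and 2.87 in endothelial cells. Insulin cells led the Wild-type orders as scaled here and not per 10000 of all UMIs, where Sst cells stood highest, at 7.77 for the sterol and 5.12 for the fatty acid branch, with insulin cells at 3.99 and 3.74. Macrophages gave 6 and 3 fatty acid UMIs, levels of 0.524 and 0.504.

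The balance between the branches within a class does not depend on the scaling. Of the UMIs of both branches, the sterol branch took 51.6% (50.9 to 52.3) in Wild-type insulin cells and 45.8% (45.1 to 46.5) in Tg7, and 73.3% (71.5 to 75.1) and 56.0% (53.4 to 58.5) in Gcg cells. The shares were 60.3% and 43.6% in Sst cells, 64.9% and 55.2% in Ppy cells and 53.2% and 46.5% in endothelial cells. The share was thus lower in Tg7 in each of the 5 classes, with intervals that overlapped in Ppy and endothelial cells. Without Acly it was 80.5% and 78.0% in insulin cells and 86.8% and 78.9% in Gcg cells. With every other hormone under 1% of UMIs the Gcg shares were 73.7% and 60.4%, but those of Sst cells were 56.4% and 58.6% and those of Ppy cells 55.1% and 56.2%, so the direction did not hold in those classes, of which 10 Wild-type and 9 Tg7 Sst cells and 8 and 15 Ppy cells were left.

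**Figure D3:**
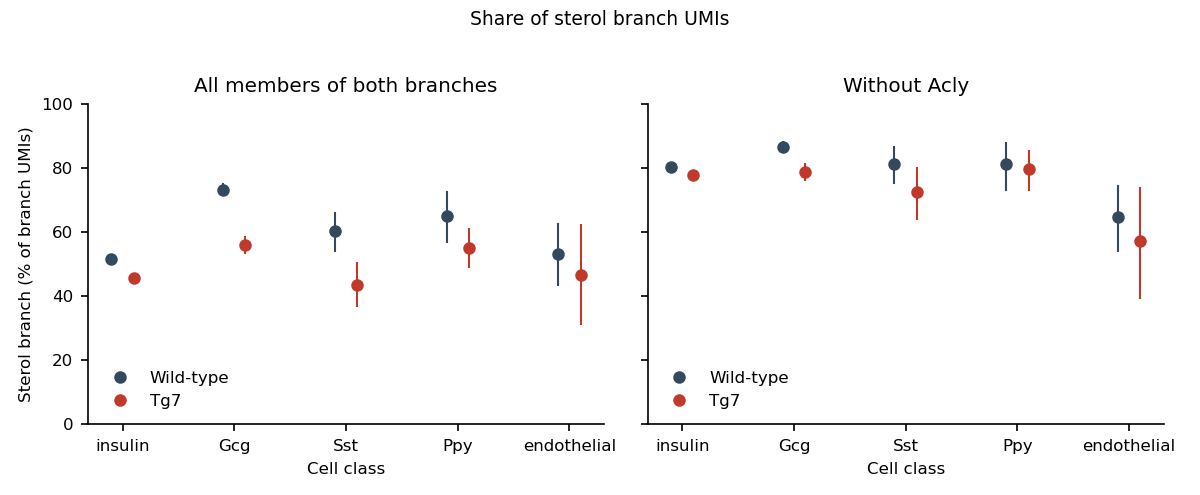
Sterol branch UMIs as a percentage of the UMIs of both branches, by cell class and library, with exact 95% binomial intervals, for all members and without Acly. With all members the Tg7 points lie below the Wild-type points in each class, most widely in Gcg cells at 56.0% and 73.3%. Without Acly the insulin points are 78.0% and 80.5%.

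Gcg and insulin cells of 1 library share their handling and were compared within it. In Wild-type the sterol level of Gcg cells was 0.936 (0.889 to 0.986) of that of insulin cells and the fatty acid level 0.363 (0.334 to 0.394). In Tg7 these ratios were 0.660 (0.615 to 0.708) and 0.439 (0.405 to 0.474). Scaled to all UMIs they became 1.68 and 0.650 in Wild-type and 0.630 and 0.418 in Tg7, so the lower fatty acid level of Gcg cells held in both libraries under both scalings and the Wild-type sterol ratio changed side. The sterol share of branch UMIs was 21.7 percentage points higher in Gcg than in insulin cells of Wild-type and 10.2 points higher in Tg7. Leaving out Acly and Msmo1, the most abundant genes of the branches, gave 6.84 (4.71 to 8.82) and 1.02 (-1.98 to 3.83) points. The Tg7 interval held 0.

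Acly made up most of the fatty acid difference. Its level in Gcg cells was 0.284 (0.255 to 0.316) of that in insulin cells in Wild-type and 0.380 (0.345 to 0.418) in Tg7. Acss2, the other cytosolic source of acetyl-CoA, had 0.267 and 0.399, Scd2 0.355 and 0.381, and Fads1 0.371 and 0.712. These 4 stayed below 1 in both libraries scaled to all UMIs. Fasn stood on the other side, at 1.54 (1.15 to 2.03) in Wild-type and 1.49 (1.12 to 1.95) in Tg7, and above 1 in both under either scaling. Of 9 fatty acid genes measured in Wild-type 4 were at least 1.5-fold lower in Gcg cells, as were 27% of all features, and 1 at least 1.5-fold higher, as were 10.6%. In Tg7 4 of 8 were lower, as were 23.8% of features, and 0 higher, as were 6.7%.

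Both Insig genes stood lower in Gcg than in insulin cells in either library and under either scaling. Insig2 had 32 UMIs in Wild-type and 47 in Tg7 Gcg cells, with ratios of 0.297 (0.201 to 0.424) and 0.337 (0.246 to 0.452). Insig1 had 0.442 (0.369 to 0.526) and 0.465 (0.373 to 0.574), and Srebf1 0.432 and 0.524. Srebf2, the factor of the sterol genes, had 0.968 (0.812 to 1.15) in Wild-type and 0.728 (0.577 to 0.909) in Tg7. Stard4 had 0.614 and 0.595, and passed to 1.10 in Wild-type scaled to all UMIs. Insig1, Insig2, Srebf1 and Stard4, 4 of the 6, were at least 1.5-fold lower in each library, where 27% (Wild-type) and 23.8% (Tg7) of all features were.

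The sterol genes did not share 1 ratio between the cell types. In Wild-type, Sqle (0.581), Lss (0.536), Ebp (0.577) and Tm7sf2 (2 UMIs in Gcg cells, 0.259 with an interval of 0.0304 to 0.991) were at least 1.5-fold lower in Gcg cells. These were 4 of 18, where 27% of all features were. Hsd17b7 was at least 1.5-fold higher, at 1.93 (1.27 to 2.88), as were 10.6% of all features. Hmgcs1 had 1.15 (1.03 to 1.28) and Msmo1 1.05 (0.949 to 1.17). In Tg7 8 of 18 sterol genes were at least 1.5-fold lower, where 23.8% of all features were, and 0 at least 1.5-fold higher, where 6.7% were. Among the 8 were Fdft1 (0.435), Sqle (0.351), Nsdhl (0.357) and Dhcr7 (0.441). Scaled to all UMIs, 10 of 18 sterol genes changed side in Wild-type and 1 in Tg7.

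**Figure D4:**
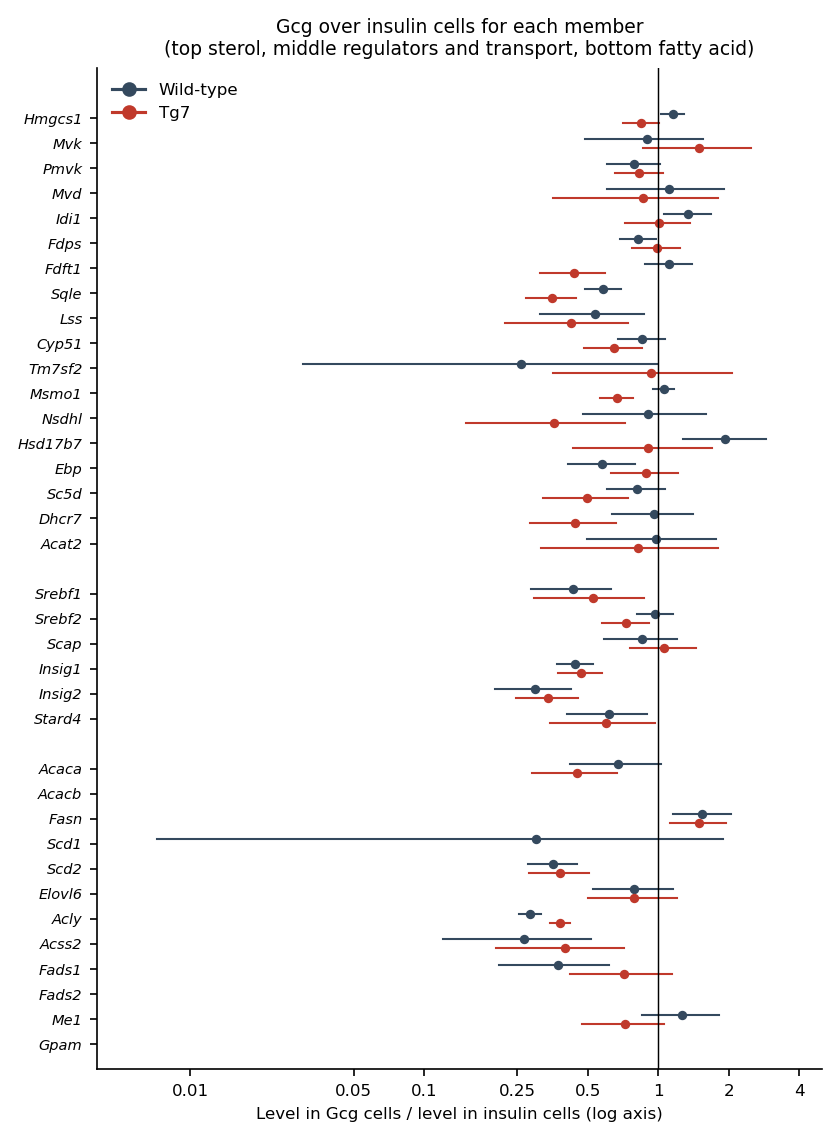
Ratio of the level in Gcg cells to the level in insulin cells of the same library for each member with at least 20 UMIs, on a log axis, with 95% counting intervals. Acly, Scd2, Acss2, Insig1 and Insig2 lie below 1 in both libraries, Fasn lies above 1 in both (1.54 and 1.49), and Fdft1 lies at 1.11 in Wild-type and 0.435 in Tg7.

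The smaller classes held few UMIs of single genes. In Sst cells, which make somatostatin, the sterol branch gave 95 Tg7 and 167 Wild-type UMIs and a ratio of 0.847 (0.652 to 1.10), which was 1.03 (0.770 to 1.37) with hormone thresholds at 0.5 times, and the fatty acid branch 123 Tg7 and 110 Wild-type UMIs, levels of 10.8 and 6.51 and a ratio of 1.67 (1.28 to 2.17). Acly gave 87 against 72 UMIs of these, a ratio of 1.80 (1.30 to 2.50). The β-cell markers summed to 832 in Tg7 and 409 in Wild-type Sst cells, and with every other hormone under 1% of UMIs the fatty acid ratio was 0.894 (0.517 to 1.52), on the other side of 1. In Ppy cells, which make pancreatic polypeptide, the sterol ratio was 0.752 (0.580 to 0.978) from 150 Tg7 and 100 Wild-type UMIs and the fatty acid ratio 1.13 (0.816 to 1.59) from 122 Tg7 and 54 Wild-type UMIs. Neither direction held throughout, as the sterol ratio was 1.08 (0.809 to 1.47) with hormone thresholds at 0.5 times and the fatty acid ratio 0.760 (0.491 to 1.18) with every other hormone under 1% of UMIs. The β-cell markers of Ppy cells stood at 505 in Tg7 and 173 in Wild-type. In endothelial cells, which line vessels, the sterol and fatty acid ratios were 0.964 (0.550 to 1.62) from 20 Tg7 and 59 Wild-type UMIs and 1.26 (0.734 to 2.09) from 23 Tg7 and 52 Wild-type UMIs. The endothelial sterol interval held both 1 and the ratio of insulin cells, so a difference of that size was not detectable there.

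Cells that passed no hormone threshold numbered 49 in Tg7 and 14 in Wild-type and were unlike each other. Those of Tg7 had a median of 3.44% of UMIs from insulin and β-cell markers at 1810 UMIs per 10000, against 0.209% and 51.7 in Wild-type, where duct markers stood at 99.8. The sterol level of these Tg7 cells was 8.02 (7.32 to 8.77) and their fatty acid level 11.0 (10.2 to 11.9), 1.03 (0.933 to 1.13) and 1.19 (1.10 to 1.29) times those of Tg7 insulin cells. The 113 Tg7 and 25 Wild-type cells with several hormones had sterol levels of 6.36 and 11.5, and they too differed in kind, with a median of 16.8% and 0.178% of UMIs from insulin and β-cell markers at 1407 and 352.

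Mouse β-cells use both Ins1 and Ins2, and insulin cells were also taken in ranges of the Ins1 share of their insulin UMIs. Of the Tg7 insulin cells 120 lay under 2%, 346 from 2% to 10% and 110 at 10% or more, the range that held 476 of 489 Wild-type cells. Tg7 sterol levels in these ranges were 8.39 (7.95 to 8.84), 7.73 (7.53 to 7.93) and 7.68 (7.31 to 8.07), against 12.2 in the Wild-type cells at 10% or more. Tg7 cells at 10% or more had a sterol level like that of the other Tg7 cells. They still differed from the Wild-type cells of that range, with 56.6% against 32.5% of UMIs outside the hormone genes. The part of the Ins1 share in the sterol level was not tested. The fatty acid levels were 9.19, 9.39 and 8.82, against 11.5. Hmgcs1 stood at 0.897, 1.09 and 1.11 and Dhcr7 at 0.409, 0.334 and 0.296, against 2.27 and 0.217 in those Wild-type cells.

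**Figure D5:**
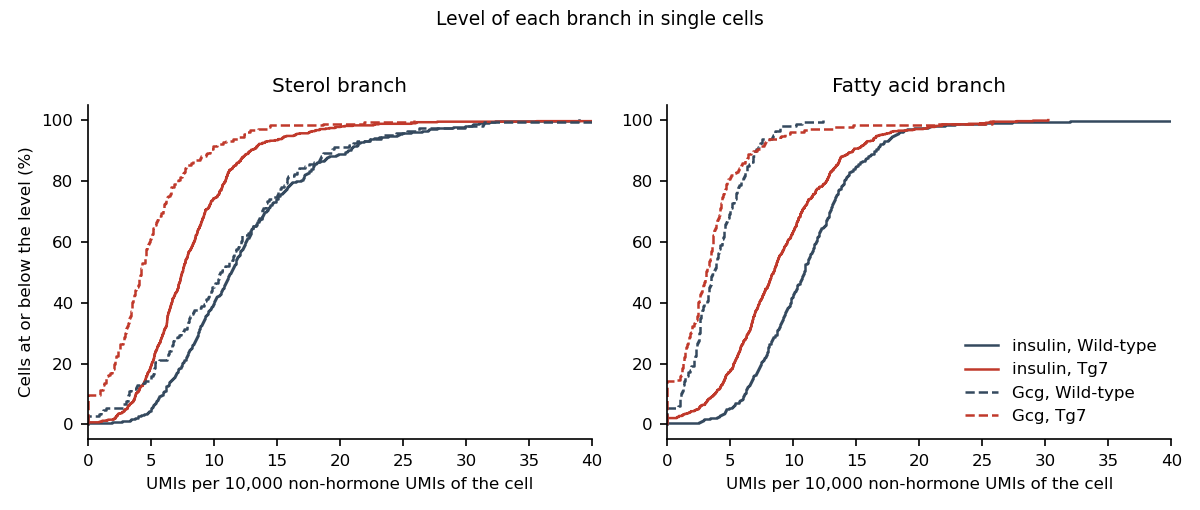
Share of cells at or below a given level of the sterol branch and of the fatty acid branch, for insulin and Gcg cells of Wild-type and Tg7, in UMIs per 10000 non-hormone UMIs of each cell, shown up to 40. The Wild-type sterol curves have medians of 11.4 in insulin and 10.6 in Gcg cells, and those of Tg7 lie to their left, with medians of 7.50 and 4.19.

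The lower sterol level was not held by a few cells. The median cell stood at 7.50 (quartiles 5.49 and 10.3) in Tg7 and 11.4 (quartiles 8.21 and 15.1) in Wild-type insulin cells, and at 4.19 (quartiles 2.53 and 6.34) and 10.6 (quartiles 6.61 and 15.0) in Gcg cells. Each cell was then thinned to 3000 non-hormone UMIs, which left out 15 Tg7 and 5 Wild-type insulin cells and 18 and 3 Gcg cells. At this equal depth the mean number of sterol UMIs was 2.43 and 3.79 in insulin cells and 1.44 and 3.46 in Gcg cells. The fatty acid means were 2.74 and 3.42 in insulin cells and 1.14 and 1.15 in Gcg cells.

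Sterol genes were also set against each other from cell to cell. With the branch split into alternate genes, Pearson's r between the summed levels of the sets was 0.50 over 489 Wild-type and 0.36 over 576 Tg7 insulin cells, and 0.66 and 0.29 over 146 and 177 Gcg cells. Between the sterol branch and Acly it was -0.06 and 0.24 in insulin cells and -0.05 and 0.48 in Gcg cells, where Spearman's rho was 0.06 and 0.23. Between the sterol branch and the fatty acid branch without Acly r was 0.27 and 0.26 in insulin cells and 0.20 and 0.32 in Gcg cells. Spearman's rho of this pair was 0.32 and 0.22 in insulin cells. In Gcg cells it was 0.32 and 0.13, so the order of the libraries there depended on the measure. Cells of a library share its preparation and both levels of a cell share its depth, so these values are descriptions.

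Other lipid genes were taken from set lists. Of 39 further genes of lipid synthesis and sterol handling 38 were measured in insulin cells, of which 26 stood lower and 12 higher in Tg7, 8 and 5 of them past 1.5-fold where 12.6% and 14.6% of all features were, with a median log2 ratio of -0.19. The lowest ratios among those with at least 100 UMIs were those of Acsl3, an acyl-CoA synthetase (62 against 136 UMIs, 0.339 with an interval of 0.247 to 0.461), and the chain elongation genes Hacd2 (0.468) and Elovl5 (0.473). The highest were those of Thrsp, a nuclear protein of lipogenic tissue, with 206 against 23 UMIs and 6.66 (4.32 to 10.7), Aacs, which activates acetoacetate for lipid synthesis, at 1.98 (1.71 to 2.30), and Acsl6 at 1.82 (1.35 to 2.47). Of 16 genes of fatty acid oxidation 10 stood higher and 6 lower in Tg7 insulin cells, where 6137 of 12744 features stood higher. Past 1.5-fold were 5 higher and 2 lower, against 14.6% and 12.6% of all features. Hadh, with most UMIs of the list, was lower, at 3103 against 6210 UMIs and 0.372 (0.356 to 0.388). In Gcg cells 12 of 15 stood higher, where 4292 of 9364 features did. The median log2 ratios of the list were 0.35 in insulin and 0.25 in Gcg cells. Scaled to all UMIs these medians were 1.13 and 0.13.

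A list of 12 immediate early and heat shock genes, known to respond to tissue dissociation, was lower in Tg7 as well. Its summed level was 59.7 UMIs per 10000 in Tg7 and 101 in Wild-type insulin cells, with 12 of 12 genes lower, and 71.7 and 81.2 in Gcg cells, with 9 of 12 lower. The median log2 ratios were -0.80 and -0.27 (-0.01 and -0.39 scaled to all UMIs). The part of this list in the lower sterol levels was not tested, and genotype and library cannot be told apart.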

How the data were processed

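Islet cells of 1 Tg7 and 1 Wild-type library were measured by 10x Genomics single-cell RNA-seq. The authors deposited filtered matrices of UMI counts per gene and barcode, made with bcl2fastq 2.17.1.14 and Cell Ranger 3.0.2 (which runs STAR) on mouse build mm10 per the submitters' processing notes, and these counts were used as deposited. A barcode was kept from 1000 UMIs upwards and up to a mitochondrial share of 20% (117 of 1123 Tg7 and 100 of 855 Wild-type barcodes failed). Scrublet in scanpy 1.11.5, at an assumed rate of 0.8% per 1000 barcodes, called 18 and 12 doublets, which were removed. No deposited cell types were used, so classes were rebuilt and may differ from those of the study. Endothelial cells and macrophages had at least 5 of 10 markers and the 4 hormones under 20% of UMIs. The remaining cells were placed by the hormone thresholds given with the results, and 37 Tg7 and 0 Wild-type insulin cells lay within 1.5 times the insulin threshold.

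Counts were summed per class and library and divided by the UMIs of genes other than Ins1, Ins2, Gcg, Sst, Ppy, Pyy and Iapp. Ratios are Tg7 over Wild-type with conditional exact binomial intervals, levels have exact Poisson and shares exact Clopper-Pearson intervals. All cover counting error only. No p-value was computed, because each group is 1 library. A member was measured with at least 20 UMIs over the 2 sums compared. All 36 members are named, and further lipid genes only for the 3 highest and 3 lowest insulin ratios with at least 100 UMIs. Of the oxidation genes only Hadh, which had most UMIs, is named, chosen after values were seen. The members, lists and motifs were chosen with earlier results of these data known, and the search for miR-7 seed matches and the choice of printed promoters were made after values were seen. Promoter and microRNA sequences are from RefSeq (GRCm38.p6, the sequence of mm10). Alternatives were scaling to all UMIs, TMM factors (edgeR 4.0.16, R 4.3.3), other barcode filters, doublets kept, thresholds at 0.5 and 2 times, Leiden clusters, equal weight per cell, and branches without their most abundant genes.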

Additional observations from a re-analysis of the deposited data

How the results depend on the processing

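Of 105 alternative values of the branch ratios, counts and shares, 80 stayed within the interval of the reported value or, for counts, within 1.5 times it and the others did not. A branch ratio lay on the other side of 1 in 8, of which 2 stayed within the interval (Gcg fatty acid 1.01 with TMM factors and Sst sterol 1.03 with thresholds at 0.5 times). In insulin cells the median log2 ratio of all features scaled to all UMIs was 0.77, and their share past 1.5-fold was not counted. This scaling took the sterol ratio to 1.11 and the fatty acid ratio to 1.40. It also took the counts of members past 1.5-fold to 4 sterol and 5 fatty acid genes. It took 15 of 34 members to the other side of 1, namely Pmvk (1.71), Tm7sf2 (1.49), Scap and Fasn (1.56), whose intervals had held 1, and 11 whose intervals had left it out, Mvk (1.16), Sqle (1.29), Lss (1.40), Cyp51 (1.27), Hsd17b7 (1.07), Ebp (1.05), Sc5d (1.14), Srebf2 (1.14), Elovl6 (1.24), Acly (1.44) and Acss2 (1.36). These turns follow from the factor of 1.73 between the scalings. In Gcg cells it took 3 of 31 to the other side, Pmvk (0.958), Scap (0.988) and Fads1 (0.969), whose intervals had held 1. TMM factors took 0 members of insulin or Gcg cells to the other side.

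With equal weight per cell the sterol ratio of insulin cells was 0.673, and without Msmo1 also 0.673. The fatty acid ratio was 0.777 with thresholds at 2 times, 0.749 without Acly and 0.707 without Acly, Acss2 and Me1. In Gcg cells the sterol ratio was 0.492 without Msmo1 and 0.381 with every other hormone under 1% of UMIs, and the fatty acid ratio 0.818 with thresholds at 0.5 times, 0.768 with Leiden clusters, 0.698 with every other hormone under 1% and 0.794 without Acly. With thresholds at 2 times the Sst ratios were 0.623 (sterol) and 0.955 (fatty acid), and with every other hormone under 1% the fatty acid ratios were 0.894 in Sst and 0.760 in Ppy cells. The Ppy sterol ratio was 1.08 with thresholds at 0.5 times. Without the most abundant genes the gap in sterol share between Gcg and insulin cells was 6.84 points in Wild-type and 1.02 in Tg7. The Tg7 interval (-1.98 to 3.83) held 0. In Tg7 the gap was 13.1 points with thresholds at 0.5 times, 14.7 with Leiden clusters and 14.0 with every other hormone under 1%. Apart from the scaling, the cause was not tested. The limit on other hormones and the scalings of single members were chosen after seeing the data.

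No paired analysis was possible because each group is 1 library and no result comes from a test. For the same reason no replicate was left out. Leiden clusters gave no Tg7 cluster led by Sst, Ppy or endothelial cells, so that alternative was run for insulin and Gcg cells.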
